A study of Rattus norvegicus with 30 samples.

Results

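Mgp and Ibsp encode matrix proteins with opposite known effects on mineral, and their transcript levels were followed for 72 h in 3 media made for osteogenesis (OS), adipogenesis (AD) or chondrogenesis (CH), in rat bone marrow mesenchymal stem cells (BMSCs). They were taken by gene name and are 2 of the 9999 gene names listed for each sample and 2 of the 4363 that passed a filter of at least 1 CPM in at least 3 samples. Mgp encodes matrix Gla protein, a small secreted protein that carries glutamates gamma-carboxylated with the help of vitamin K, holds back calcification of cartilage and artery walls, and can bind bone morphogenetic proteins (BMPs). Ibsp encodes bone sialoprotein, an acidic phosphoprotein of the SIBLING family that binds hydroxyapatite and favours its nucleation, binds integrins through an RGD motif, and is made by osteoblasts and by hypertrophic chondrocytes, among others. Mgp is used as a marker of chondrocytes and of mural cells of vessels, and Ibsp of cells that lay down mineralizing matrix.

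The cells came from the femurs and tibiae of 3 female Sprague Dawley rats aged 3 weeks and were grown to a low passage in flat culture. RNA was sequenced from 30 samples in 10 groups of 3. The groups were undifferentiated cells (0 h) and, after 3, 12 or 72 h, cells in osteogenic, adipogenic or chondrogenic differentiation medium, with cells of 3 cultures pooled in each sample. The series record calls the samples biological replicates, and the paper speaks of 3 independent experiments in a figure legend. The sources used here do not say whether the 3 samples of a group came from separate animals, so p-values measure only the spread between these samples. All comparisons with 0 h share the same 3 undifferentiated samples, and uninduced cells of later times were not analysed here, so time in culture and induction cannot be told apart.

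Values are in CPM, the reads of a gene scaled to the same total in each sample and not divided by gene length. The total behind each sample was 3899609 to 9046719 reads with a median of 6579543, and it was lowest at 72 h of chondrogenesis, at 3899609 to 4523111. Of these totals the listed genes held 38.9 to 71.4%. Intervals and floors that follow from read numbers cover counting error only. Longer genes give more reads, so levels of different genes are not compared, and where a marker sum is split by gene below, the shares are of reads only. A low value in these tables cannot be read as lack of expression, because genes that every cell uses were listed near 0 as well. Actb, the gene of beta-actin, was listed at 0 to 5.40 CPM and Ppia, a cyclophilin, at 0 to 0.455 CPM, whereas Rplp0, a ribosomal protein gene, was listed at 2075 to 7542 CPM.

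The labelled cell type was checked against marker genes. Of 9 markers of mesenchymal stromal cells 6 were listed, and their summed level at 0 h was 8732, 8316 and 8911 CPM, nearly all of it from Thy1, the gene of CD90, at a mean of 8052 CPM. At 72 h the mean sum was 4009 CPM in osteogenesis, 729 CPM in adipogenesis and 2956 CPM in chondrogenesis, and Thy1 was called lower in each (log2 fold changes -1.12, -4.24 and -1.76). Cd44, another marker of the list, was called at no 72 h point (-0.99, -0.998 and -0.06) and was called higher at 3 h of osteogenesis and adipogenesis (1.49 and 1.03) and at 12 h of osteogenesis (1.003). The 72 h groups are those in which Mgp lay above 0 h, and the part of the change in Thy1 in that result was not tested. Vcam1 was listed at 3 reads or fewer in every sample. Of 10 blood and macrophage markers 3 were listed, summing to 0 to 0.418 CPM at 0 h, all from Csf1r, and to at most 4.08 CPM in any sample. That sample was at 72 h of adipogenesis, a group in which Mgp was called higher. There Lyz2 was at 1.24 to 2.06 CPM and Adgre1 at 0.317 to 2.84 CPM, both at 0 CPM at 0 h, and Csf1r at 0 to 0.178 CPM. Lyz2 passed the filter only through this group, so its call there is not given. The 3 endothelial markers listed of 7 summed to 0.740 to 7.08 CPM over all samples. Of these, Tek was called higher at 3 h of osteogenesis and adipogenesis (1.33 and 1.68) and at 72 h of osteogenesis (2.12). Vwf was called lower at 12 h of osteogenesis, adipogenesis and chondrogenesis (-1.68, -1.23 and -1.09). Of 7 osteoclast markers only Oscar was listed, at 0 to 2.32 CPM. It was called higher at 3 h of adipogenesis (1.24) and at 12 h of chondrogenesis (1.22), where Ibsp was also called higher. Of 7 smooth muscle and pericyte markers 5 were listed, with Acta2 at 3 reads or fewer in every sample. Their sum, mostly Cnn1, the gene of calponin, was 99.0, 105 and 102 CPM at 0 h. Its means in osteogenesis, adipogenesis and chondrogenesis were 452, 354 and 511 CPM at 3 h, 97.1, 27.0 and 459 CPM at 12 h and 8.66, 8.18 and 82.6 CPM at 72 h. It thus lay above 0 h at 3 h in every lineage but at 12 h only in chondrogenesis. The part of blood, endothelial, osteoclast, smooth muscle and pericyte cells in the results was not tested.

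Lineage markers were sparse. Of 10 chondrocyte markers 9 were listed, but Acan, Col2a1, Matn1 and Matn3 had at most 3 reads in every sample, and the sum was nearly all Sox9, a transcription factor gene of early chondrogenesis, at a mean of 48.1 CPM at 0 h and 603, 638 and 1299 CPM at 3, 12 and 72 h of chondrogenesis, the points at which Ibsp was called higher. Sox9 was also called higher at 3 h of osteogenesis (1.05), where Ibsp was not. It was called lower at 12 h of osteogenesis (-1.37) and at 3, 12 and 72 h of adipogenesis (-1.45, -2.9 and -1.496), where Ibsp was not called in either direction. Comp, a cartilage matrix gene, was at 0, 0.139 and 0 CPM at 0 h. At 72 h of chondrogenesis, the group in which Ibsp was highest, it was at 25.1, 20.3 and 19.3 CPM. Every sample of the other groups was below 1 CPM, so Comp passed the filter through this group alone. Its call there is therefore not given. The part of chondrocytes in these results was not tested. Of 10 osteoblast and osteocyte markers 7 were listed, with Sp7 and Alpl at 3 reads or fewer everywhere, and Ibsp was the most abundant of them in every group. The osteogenic label is therefore used here for the medium, and no osteoblast state is read from these markers. Of 9 adipocyte markers 6 were listed, led by Lpl, lipoprotein lipase, at 720 CPM at 0 h and 1921 CPM at 72 h of adipogenesis. The sum was nearly all Lpl. Of the other tested markers, all at means under 3 CPM, Plin1 was at 1.42 to 3.48 CPM at 72 h of adipogenesis. Pparg was at 1.81 to 2.50 CPM at 72 h of osteogenesis and at 0 to 0.950 CPM at 72 h of adipogenesis. Lep was at 1.01 to 2.18 CPM at 12 h of chondrogenesis. Plin1, Pparg and Lep each passed the filter only through the first group named for them, so their calls there are not given. Cebpa was called at no time. The summed level of all 6 listed markers in the 72 h samples of adipogenesis was 1163, 1389 and 3221 CPM, highest in the same replicate 3 as Mgp. At 12 h of adipogenesis it was 254, 1094 and 1029 CPM, lowest in the same replicate 1 as Mgp. At 72 h it was 1111 CPM by the mean in osteogenesis and 14.8 CPM in chondrogenesis, where the mean of Mgp was highest. The part of adipocytes in these results was not tested.

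Some libraries stood apart from the other samples of their group. The number of genes more than 2 log2 units away from the mean of the other 2 samples was 74 for replicate 3 of 72 h of adipogenesis, 24 for replicate 1 of 12 h of adipogenesis and 18 for replicate 3 of 3 h of osteogenesis. For 25 of the other 27 samples it was 0 to 2, and for the other 2, replicates 1 and 2 of 72 h of adipogenesis, it was 13 each. Log2 fold changes of Mgp and Ibsp that these first 3 libraries enter are given with and without them. Ratios of means, ranks and correlations are given with all samples only.

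At 0 h, Mgp was at 2749.6, 2604 and 2603 CPM (mean 2652 ± 84.2, SD, n = 3). After 3 h of osteogenesis, the samples were at 199, 188 and 131 CPM (mean 173 ± 36.7), and after 12 h at 143, 152 and 134 CPM (mean 143 ± 9.06). After 72 h they were at 4867, 5545 and 5171 CPM (mean 5194 ± 339.7). Every 3 h and 12 h sample lay far below every undifferentiated sample, and every 72 h sample lay above.

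In adipogenesis, Mgp was at 211, 223 and 204 CPM after 3 h (mean 213 ± 9.85). After 12 h the samples were at 203, 477 and 524 CPM (mean 401 ± 173), of which replicate 1 was the low one. At 72 h they reached 5698, 4762 and 9420 CPM (mean 6627 ± 2464), and replicate 3, the library that stood apart, was the highest. The spread between the adipogenic samples at 12 and 72 h exceeded that of every other group of the same time.

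In chondrogenesis, Mgp was at 289, 267 and 263 CPM after 3 h (mean 273 ± 14.2). It was at 213, 184 and 186 CPM after 12 h (mean 194 ± 16.1) and at 10999.6, 8740.2 and 7896 CPM after 72 h (mean 9212 ± 1605). The first time points were again low in every sample, and the last was above the undifferentiated cells in every sample.

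By level, the group means of Mgp ran from 72 h of chondrogenesis through 72 h of adipogenesis and of osteogenesis, undifferentiated cells, 12 h of adipogenesis, 3 h of chondrogenesis, 3 h of adipogenesis, 12 h of chondrogenesis and 3 h of osteogenesis to 12 h of osteogenesis. Neighbours in this order overlapped sample by sample at 72 h, between chondrogenesis and adipogenesis and between adipogenesis and osteogenesis. The samples of 12 h of adipogenesis overlapped those of 3 h of chondrogenesis, and each of the last 4 groups overlapped the next, from 3 h of adipogenesis down to 12 h of osteogenesis. The samples of 3 h of chondrogenesis and 3 h of adipogenesis did not overlap. The groups on either side of the undifferentiated cells did not overlap them.

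**Figure D1:**
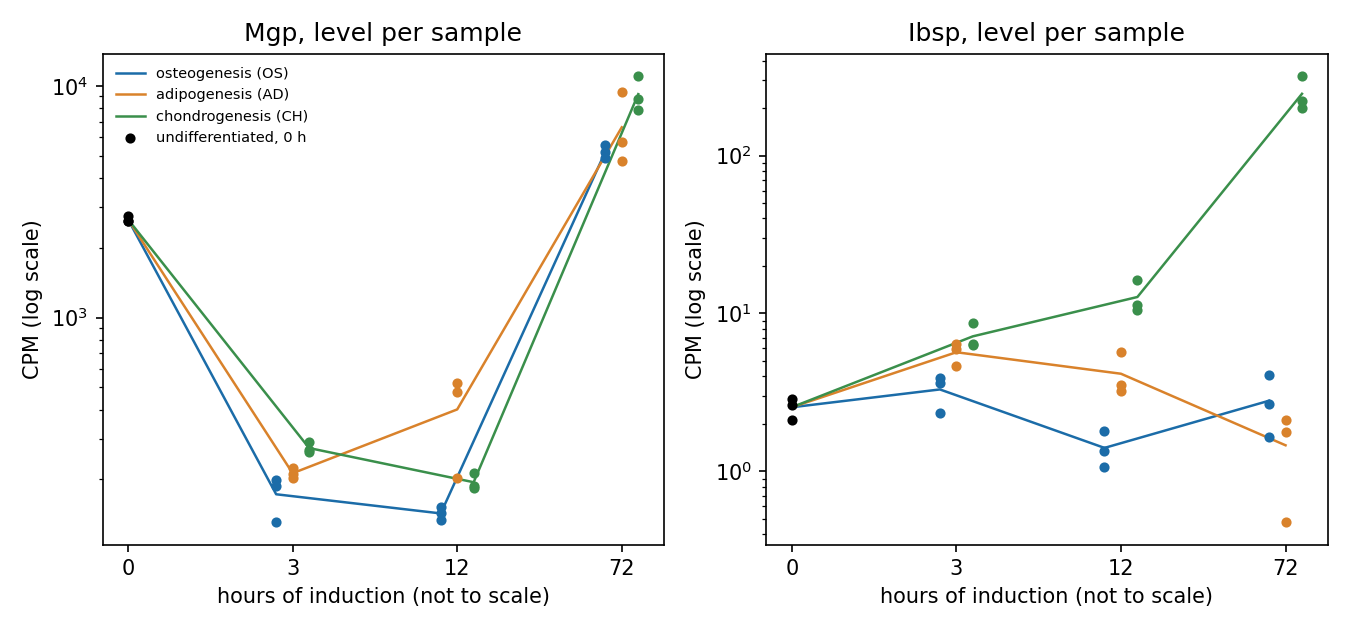
Levels of Mgp (left) and Ibsp (right) in CPM on a log axis against hours of induction, which are evenly spaced and not to scale. Points are single samples, 3 per group, and lines join group means from the shared undifferentiated cells. Mgp lay below 0 h at 3 and 12 h and above it at 72 h in all 3 lineages, whereas Ibsp reached 201 to 318 CPM only at 72 h of chondrogenesis.

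Against undifferentiated cells, Mgp fell in all 3 lineages at 3 and 12 h. The test was limma, fitted once to log2(CPM + 1) of all samples, and p was adjusted by Benjamini-Hochberg over the 4363 genes. Calls needed an adjusted p under 0.05 and a log2 fold change no smaller than 1 in either direction. The SE of every Mgp value on this scale was 0.23. In osteogenesis the level was 15.4 times lower at 3 h (log2 fold change -3.96, adjusted p = 1.3e-14) and 18.6 times lower at 12 h (-4.21, adjusted p = 1.9e-15). Without replicate 3 of 3 h, the 3 h value was -3.77. Of all tested genes, 6.67% were called lower at 3 h and 7.15% at 12 h, and by size of fall Mgp ranked 2 and 3 among all tested genes.

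In adipogenesis Mgp was 12.5 times lower at 3 h (log2 fold change -3.63, adjusted p = 8.5e-14), where 6.42% of genes were called lower. It was 6.61 times lower at 12 h (-2.84, adjusted p = 2.6e-11), where 5.55% were called lower, and -2.40 without replicate 1 of that group. In chondrogenesis it was 9.71 times lower at 3 h (-3.28, adjusted p = 7.7e-13), with 4.88% of genes called lower, and 13.6 times lower at 12 h (-3.77, adjusted p = 4.8e-14), with 5.0% called lower. At these 6 points Mgp was among the 17 genes with the largest falls of all tested genes. In bulk samples, fewer cells that express a gene and less of its RNA per cell cannot be told apart.

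At 72 h Mgp was above undifferentiated cells in all 9 samples. In chondrogenesis it was 3.47 times higher (log2 fold change 1.78, adjusted p = 1.8e-07), where 11.6% of genes were called higher, and the value was 1.16 and still called under quantile normalization. In adipogenesis it was 2.50 times higher (1.26, adjusted p = 5.1e-05), where 6.19% of genes were called higher, but without replicate 3 of 72 h the value was 0.97 with an adjusted p of 0.00082 and no longer passed the fold threshold. In osteogenesis it was 1.96 times higher (0.97, adjusted p = 0.0015), under the fold threshold, where 7.20% of genes were called higher. Leaving out replicate 1 of 72 h of osteogenesis gave 1.01, past it.

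From one time point to the next, no change of Mgp was called between 3 and 12 h with all samples, and it rose from 12 to 72 h. From 3 to 12 h the log2 fold changes were -0.25 in osteogenesis (adjusted p = 0.50), 0.80 in adipogenesis (adjusted p = 0.0079) and -0.49 in chondrogenesis (adjusted p = 0.13), where 7.82%, 12.9% and 7.68% of genes were called in either direction. The adipogenic mean was 1.89 times higher at 12 h, and replicates 2 and 3 lay above every 3 h sample. Without replicate 1 the value was 1.23 (adjusted p = 4.0e-06) and was called. The osteogenic value was -0.44 without replicate 3 of 3 h. From 12 to 72 h Mgp was 36.4 times higher in osteogenesis (log2 fold change 5.18, adjusted p = 7.3e-18), 16.5 times in adipogenesis (4.10, adjusted p = 4.0e-15) and 47.4 times in chondrogenesis (5.55, adjusted p = 8.3e-18). In these steps 23.2%, 16.0% and 13.2% of genes were called in either direction, and by size of rise Mgp ranked 4, 8 and 5. The adipogenic step was 3.81 without replicate 3 of 72 h and 3.66 without replicate 1 of 12 h.

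The lineages were then set against each other at each time, which also tests whether their changes from the shared 0 h samples differ. At 3 h no difference in Mgp was called. The log2 differences were -0.32 for osteogenesis against adipogenesis, -0.68 for osteogenesis against chondrogenesis and 0.36 for chondrogenesis against adipogenesis (adjusted p = 0.38, 0.036 and 0.32), in comparisons where 7.66%, 7.31% and 9.35% of genes were called. Without replicate 3 of osteogenesis the first 2 were -0.14 and -0.49. At 12 h Mgp was lower in osteogenesis than in adipogenesis (-1.37, adjusted p = 1.9e-05), and -1.80 without replicate 1 of adipogenesis. Chondrogenesis differed from adipogenesis by -0.93 (adjusted p = 0.0020), which was under the fold threshold and became -1.36 without that library, and osteogenesis from chondrogenesis by -0.44 (adjusted p = 0.14). The share of genes called at 12 h was 13.2% for osteogenesis against adipogenesis, 16.0% for osteogenesis against chondrogenesis and 13.6% for chondrogenesis against adipogenesis.

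At 72 h no lineage pair passed both thresholds for Mgp. The log2 difference was -0.29 for osteogenesis against adipogenesis (adjusted p = 0.35), and -0.01 without replicate 3 of adipogenesis. It was -0.81 for osteogenesis against chondrogenesis (adjusted p = 0.0048), whose samples did not overlap, and 0.52 for chondrogenesis against adipogenesis (adjusted p = 0.059), whose samples overlapped. Without replicate 3 of adipogenesis the last was 0.81 (adjusted p = 0.0034), and under quantile normalization it was -0.08. The difference of osteogenesis from chondrogenesis ran from -0.94 to -0.33 over all alternatives and was smallest under quantile normalization (limma, adjusted p = 0.30, with 0.0027 to 0.30 over all alternatives). In these pairs 13.7%, 19.6% and 25.5% of genes were called.

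Ibsp was low at 0 h, at 2.86, 2.65 and 2.12 CPM, which are 20, 19 and 14 reads (mean 2.54 ± 0.381, SD, n = 3). In osteogenesis its level was 3.92, 3.63 and 2.35 CPM after 3 h (mean 3.30 ± 0.834), 1.81, 1.35 and 1.07 CPM after 12 h (mean 1.41 ± 0.375) and 2.69, 4.06 and 1.66 CPM after 72 h (mean 2.80 ± 1.204). In adipogenesis it was 4.64, 6.45 and 5.95 CPM after 3 h (mean 5.68 ± 0.934), 3.22, 3.499 and 5.74 CPM after 12 h (mean 4.15 ± 1.38) and 1.78, 2.13 and 0.475 CPM after 72 h (mean 1.46 ± 0.871). The last of these, from the library that stood apart, rests on 3 reads, with an exact 95% Poisson interval of 0.0980 to 1.39 CPM. All of these samples stayed below 7 CPM.

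In chondrogenesis Ibsp was at 6.44, 6.31 and 8.73 CPM after 3 h (mean 7.16 ± 1.36). It was at 10.5, 16.4 and 11.2 CPM after 12 h (mean 12.7 ± 3.18). After 72 h the samples were at 318, 201 and 221 CPM (mean 247 ± 62.9), which are 1241, 908 and 992 reads. The samples of each chondrogenic time point lay above those of the point before, and the lowest sample at 72 h was above all 27 samples of the other groups.

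Ordered by mean level, Ibsp ran from 72 h to 12 h to 3 h of chondrogenesis, then 3 h and 12 h of adipogenesis, 3 h and 72 h of osteogenesis, undifferentiated cells, 72 h of adipogenesis and 12 h of osteogenesis. Neighbours from 3 h of chondrogenesis downwards all overlapped sample by sample. The 12 h samples of chondrogenesis did not overlap its 3 h samples, though that step was not called.

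Against undifferentiated cells, Ibsp rose in chondrogenesis at every time. The SE of every Ibsp value was 0.28, and the log2(CPM + 1) scale understates changes at such low levels. The level was 2.81 times that at 0 h after 3 h (log2 fold change 1.196, adjusted p = 0.00094), 4.998 times after 12 h (1.93, adjusted p = 2.0e-06) and 96.9 times after 72 h (6.10, adjusted p = 4.3e-17). Of all tested genes, 13.1%, 9.44% and 11.6% were called higher at these points, and at 72 h Ibsp ranked 9 by size of rise. With median-ratio scaling the 3 h value was 0.92 and was not called.

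Ibsp was not called against 0 h in osteogenesis or adipogenesis. The osteogenic log2 fold changes were 0.27, -0.56 and 0.06 at 3, 12 and 72 h (adjusted p = 0.50, 0.11 and 0.93), where 11.7%, 14.7% and 7.20% of genes were called higher and 6.67%, 7.15% and 5.29% lower. Without replicate 3 of 3 h the first was 0.44. The value at 72 h is near 0 and changed sign under several settings, and edgeR on recovered reads called the 12 h value lower at -1.25. The adipogenic log2 fold changes were 0.91, 0.51 and -0.59 (adjusted p = 0.010, 0.17 and 0.11), where 12.4%, 8.14% and 6.19% of genes were called higher and 6.42%, 5.55% and 9.08% lower. The 3 h value in adipogenesis was 1.12 and called with a pseudocount of 0.1, and 1.03 and called without replicate 1 of that group. Without replicate 1 of 12 h the second was 0.64, and without replicate 3 of 72 h the last was -0.26. The lack of a call at 3 to 42 reads per sample does not show that these levels were equal. With all samples, the 3 h value in adipogenesis passed on its adjusted p in limma and missed only the fold threshold.

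Between 12 and 72 h Ibsp rose 19.4 times in chondrogenesis (log2 fold change 4.17, adjusted p = 7.3e-13). In adipogenesis over the same step the log2 fold change was -1.11 (adjusted p = 0.0020), called lower, but -0.77 without replicate 3 of 72 h and -0.90 without replicate 3 of 12 h, neither of which was called. The call was also lost at -0.84 with median-ratio scaling, at -0.94 with the same sum over the listed genes and, by its adjusted p of 0.085 in limma (0.00093 to 0.085 over all alternatives), in a fit on the 6 samples. Without replicate 1 of 12 h it was -1.23 and called. In osteogenesis the step was 0.62 (adjusted p = 0.074). From 3 to 12 h the values were -0.83 in osteogenesis (adjusted p = 0.033), -0.40 in adipogenesis (adjusted p = 0.32) and 0.74 in chondrogenesis (adjusted p = 0.063), none called. They were -0.9996 in osteogenesis without replicate 3 of 3 h and -0.27 in adipogenesis without replicate 1 of 12 h, again not called. The osteogenic fall was called at -1.17 with a pseudocount of 0.1 and at -1.36 with edgeR, which also called the osteogenic step from 12 to 72 h at 1.23.

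Set against the other lineages, chondrogenesis had higher Ibsp at 12 and 72 h. At 12 h the log2 difference of osteogenesis from chondrogenesis was -2.50 (adjusted p = 2.2e-08), and that of chondrogenesis from adipogenesis 1.42 (adjusted p = 0.00020), or 1.29 without replicate 1 of adipogenesis. The first was -3.09 with a pseudocount of 0.1 and -3.29 with edgeR. At 72 h it was -6.05 for osteogenesis against chondrogenesis (adjusted p = 5.8e-17) and 6.70 for chondrogenesis against adipogenesis (adjusted p = 2.9e-18), or 6.36 without replicate 3 of adipogenesis and 7.49 with a pseudocount of 0.1. The means differed 88.1 times and 168.7 times, the second resting on 25 reads in all in adipogenesis. Osteogenesis was below adipogenesis at 12 h (-1.08, adjusted p = 0.0035), a call that was lost at -0.87 without replicate 3 of adipogenesis, at -0.97 without replicate 3 of osteogenesis and at -0.92 under quantile normalization. It was -1.21 without replicate 1 of adipogenesis and -1.67 with edgeR, both called.

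At 3 h no pair was called for Ibsp. The log2 difference was -0.65 for osteogenesis against adipogenesis (adjusted p = 0.12), -0.93 for osteogenesis against chondrogenesis (adjusted p = 0.020) and 0.29 for chondrogenesis against adipogenesis (adjusted p = 0.58). Without replicate 1 of osteogenesis or replicate 2 of chondrogenesis the second was -1.04 or -1.004 and called. Without replicate 3 of osteogenesis the first 2 were -0.48 and -0.76. At 72 h osteogenesis and adipogenesis differed by 0.65 (adjusted p = 0.072), and by 0.32 without replicate 3 of adipogenesis.

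Scaling bears on values near the threshold. Other scalings moved the median log2 difference of all tested genes by -0.33 (chondrogenesis against adipogenesis at 72 h, same sum over the listed genes) to 0.26 (72 h against 12 h of adipogenesis, median-ratio scaling). The split of calls against 0 h moved with it. At 3 h of osteogenesis CPM gave 510 genes higher and 291 lower, and median-ratio scaling 376 and 419. At 12 h of osteogenesis the split was 640 and 312 against 415 and 476, and at 72 h 314 and 231 against 267 and 286. For adipogenesis it was 541 and 280 against 396 and 392 at 3 h, 355 and 242 against 243 and 340 at 12 h, and 270 and 396 against 381 and 351 at 72 h. For chondrogenesis it was 572 and 213 against 368 and 323 at 3 h and 412 and 218 against 272 and 318 at 12 h, and at 72 h it was 507 and 278 against 511 and 299, but 430 and 381 with the same sum over the listed genes. Mgp kept its direction against 0 h at every time in every lineage under each scaling.

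Genes that act in the same processes as Mgp and Ibsp were described by counts, without a test of the lists. The 10 lists hold 82 genes besides Mgp and Ibsp, of which 42 were listed and 22 tested, and the others were not tested here. Of the 22, osteogenesis had 2 called above 0 h and 4 below at 3 h, where 11.7% and 6.67% of all tested genes were called above and below. It had 2 and 8 at 12 h, beside 14.7% and 7.15%, and 7 and 2 at 72 h, beside 7.20% and 5.29%. The 7 include Smpd3, which passed the filter only through 72 h of osteogenesis. Adipogenesis had 3 and 4 at 3 h, beside 12.4% and 6.42%, 3 and 5 at 12 h, beside 8.14% and 5.55%, and 2 and 5 at 72 h, beside 6.19% and 9.08%. Chondrogenesis had 2 and 4 at 3 h, beside 13.1% and 4.88%, 5 and 4 at 12 h, beside 9.44% and 5.0%, and 7 and 3 at 72 h, beside 11.6% and 6.37%. The median log2 fold change of the 22 ran from -0.32 at 72 h of adipogenesis to 0.46 at 72 h of chondrogenesis, where the medians of all tested genes were -0.05 and 0.01.

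Of the SIBLING family, 3 of 5 genes were listed and Ibsp alone was tested. Spp1, osteopontin, an inhibitor of crystal growth, had at most 2 reads in every sample except at 72 h of chondrogenesis, where it had 1 to 5. Dmp1 did not pass the filter.

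Of 10 Gla protein and gamma-carboxylation genes, 8 were listed and 6 tested, Mgp included. Pros1, the gene of protein S, a cofactor of the anticoagulant system that is gamma-carboxylated, was at 1770, 1882 and 1933 CPM at 0 h and at 363 to 471 CPM in the 9 samples of 3 h. It fell at 3 h in all 3 lineages (log2 fold changes -2.11 in osteogenesis, -2.11 in adipogenesis and -2.23 in chondrogenesis, adjusted p at most 3.4e-12) and was also called lower at 12 h of osteogenesis (-2.30) and of chondrogenesis (-1.67) and at 72 h of chondrogenesis (-1.14, adjusted p = 6.6e-07). Unlike Mgp, Pros1 was not above 0 h at 72 h in any lineage by the mean. Gas6, a ligand of TAM receptors and also a Gla protein, was at 5.99 to 9.86 CPM at 0 h, and rose at 72 h of adipogenesis to 59.9 to 97.2 CPM (3.19, adjusted p = 6.7e-12), of osteogenesis to 57.0 to 64.6 CPM (2.83, adjusted p = 1.3e-10) and of chondrogenesis to 23.4 to 32.0 CPM (1.69, adjusted p = 1.6e-06). At 3 and 12 h of osteogenesis Gas6 was called lower (-1.48 and -1.70), and at 12 h of adipogenesis higher (1.24, adjusted p = 0.00017).

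Ggcx, the gamma-carboxylase that modifies these proteins, was at 77.3 to 93.4 CPM at 0 h. It was called higher at 12 h of chondrogenesis only (1.11, adjusted p = 6.9e-06), at 165 to 213 CPM, and this call was lost under all 3 other scalings, with values of 0.73 to 0.88, and with edgeR at 0.86. Calu, calumenin, an inhibitor of that enzyme, was not called against 0 h but differed at 72 h between chondrogenesis and adipogenesis (1.56, adjusted p = 7.2e-07). Prrg4, another protein with a Gla domain, was called higher at 12 and 72 h of chondrogenesis (2.06 and 1.87), where its level was 5.13 to 10.9 CPM.

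Of 10 phosphate and pyrophosphate genes, 6 were listed and 3 tested. Ankh, which helps to move pyrophosphate, an inhibitor of mineral growth, out of the cell, was at 525, 570 and 622.5 CPM at 0 h. It fell in adipogenesis to 195 to 207 CPM at 12 h (-1.51, adjusted p = 1.7e-12) and to 144 to 165 CPM at 72 h (-1.85, adjusted p = 1.1e-14). In chondrogenesis it was 1117 to 1252 CPM at 72 h (1.06, adjusted p = 2.0e-09), a call lost at 0.91, 0.82 and 0.98 under quantile normalization, the same sum and edgeR and at 0.997 without replicate 1 of 0 h. Its call at 12 h of osteogenesis (-1.06) was lost at -0.995 without replicate 3 of 0 h. At 72 h Ankh differed by 2.91 between chondrogenesis and adipogenesis (adjusted p = 1.2e-19). Smpd3, a sphingomyelinase needed for mineralization of bone and cartilage, was at 0.143, 0.279 and 0.607 CPM at 0 h. At 72 h of osteogenesis it was at 13.0, 15.9 and 11.6 CPM. At the same time it was at 0 to 1.07 CPM in adipogenesis and at 0 to 0.221 CPM in chondrogenesis. The samples at 0 h hold 1 to 4 reads of Smpd3. It passed the filter only through 72 h of osteogenesis, so its fitted values for that group are not given.

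Among soluble inhibitors of mineralization, 4 of 6 were listed and 2 tested, Mgp and Tnfrsf11b. Tnfrsf11b encodes osteoprotegerin, the decoy receptor that holds back osteoclast formation. It was at 281 to 325 CPM at 0 h and was called lower at every time of osteogenesis and chondrogenesis and at 12 and 72 h of adipogenesis, with log2 fold changes of -3.75 at 12 h of osteogenesis and -3.63 at 72 h of chondrogenesis. Its 3 h call in osteogenesis was lost without replicate 3 (-0.95). At 72 h of chondrogenesis Tnfrsf11b was at 23.1 to 23.8 CPM. Its lowest mean was 21.7 CPM at 12 h of osteogenesis, where Mgp was lowest too.

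Of 14 bone matrix genes, 8 were listed and 4 tested. Postn, periostin, was at 0.139 to 0.152 CPM at 0 h, 1 read in each sample, and at 48.0, 46.9 and 54.5 CPM at 72 h of chondrogenesis (fitted 5.47, adjusted p = 8.1e-16). Postn was also called higher at 12 h of chondrogenesis (4.91, 1.40 and 3.33 CPM, fitted 1.78) and at 72 h of osteogenesis (1.19, 2.65 and 2.26 CPM, fitted 1.37). Serpinf1, which encodes a secreted factor whose loss causes brittle bone with a mineralization defect, rose at 72 h of chondrogenesis from a range of 1466 to 1662 CPM at 0 h to 4838 to 5562 CPM (1.70, adjusted p = 3.6e-07) and at 72 h of osteogenesis to 3386 to 3665 CPM (1.15, adjusted p = 0.00019, with 0.94 under quantile normalization). Lox, lysyl oxidase, was called higher at 12 h of chondrogenesis (1.47, adjusted p = 2.6e-05), at 71.6 to 96.5 CPM.

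**Figure D2:**
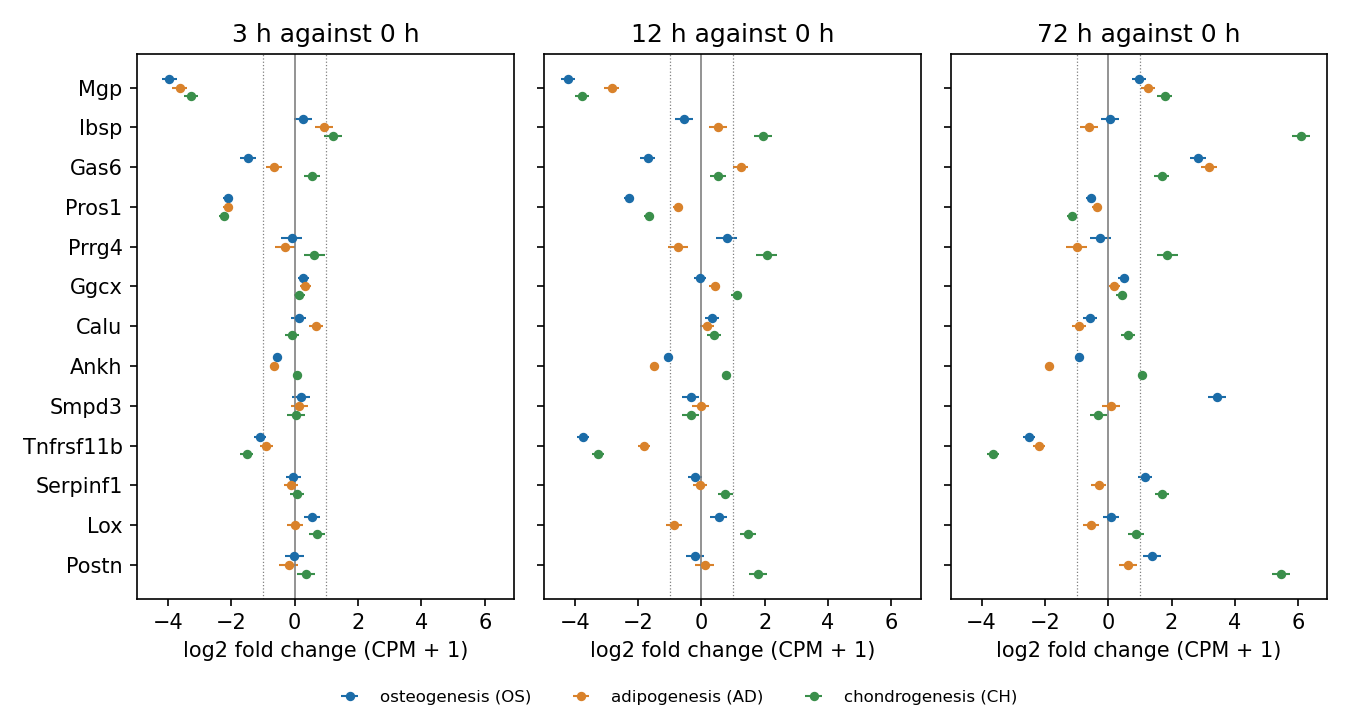
Log2 fold change against 0 h on the log2(CPM + 1) scale at 3, 12 and 72 h for Mgp, Ibsp and 11 other tested genes of mineralization, with 1 point per lineage and bars of 1 SE of the limma model. Dotted lines mark a log2 fold change of 1 in each direction. Smpd3 passed the filter only through 72 h of osteogenesis, so its point there is not read as a result. Mgp lies left of 0 at 3 and 12 h and right of it at 72 h, and Ibsp and Postn lie farthest right at 72 h of chondrogenesis.

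Osteoblast transcription factors, of which 5 of 7 were listed and 3 tested, were led by Dlx3, a homeobox gene. Dlx3 was at 27.9 to 31.7 CPM at 0 h and rose in osteogenesis at each time, to 258 to 272 CPM at 12 h (3.13, adjusted p = 3.4e-10), and at 3 h of adipogenesis (2.93, adjusted p = 2.0e-09). Its call at 12 h of adipogenesis (1.29) rested on replicate 1, since without it the value was 0.62. At 72 h of chondrogenesis Dlx3 fell to 6.92 to 9.34 CPM (-1.80, adjusted p = 1.0e-05). Msx2, another homeobox gene, was called higher at 72 h of osteogenesis (1.14, adjusted p = 0.00024), a call lost at 0.95 without replicate 1 of 0 h. Atf4, which encodes a stress-responsive factor that osteoblasts need, was not called against 0 h but was higher at 72 h in chondrogenesis than in adipogenesis (1.35, adjusted p = 6.2e-10).

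Mgp can bind BMPs, and 6 of 17 BMP ligand, receptor and antagonist genes were listed, with 2 tested. Nog, noggin, a secreted BMP antagonist, was called higher at 3 h of chondrogenesis, at 26.6 to 29.5 CPM against 6.73 to 10.3 CPM at 0 h (1.73, adjusted p = 0.0010), and lower at 12 and 72 h of osteogenesis (-1.10 and -1.85) and 3 and 12 h of adipogenesis (-1.42 and -1.94). The 12 h call in osteogenesis was lost without replicate 3 of 0 h (-0.93) or replicate 2 of that group (-0.78). Bambi, a decoy receptor, was called higher at 3 h of adipogenesis (2.39, adjusted p = 2.0e-07) and at 72 h of chondrogenesis (1.84, adjusted p = 1.5e-05). Its call at 12 h of osteogenesis was borderline and was lost without replicate 1 (-0.927) or 2 of 0 h (-0.972) or replicate 2 of that group (-0.901), and under quantile normalization (-0.974). Of 6 BMP target genes 3 were listed and 2 tested. Id3 was at 683, 689 and 769.7 CPM at 0 h and fell at 3 h of adipogenesis (log2 fold change -3.18) and of chondrogenesis (-3.023, adjusted p = 5.8e-14 and 1.8e-13). At 12 h it was called lower in osteogenesis, adipogenesis and chondrogenesis (-1.39, -1.78 and -1.33). At 72 h of chondrogenesis, with Mgp and Ibsp high, Id3 was at 659 to 789 CPM, with a log2 fold change of 0.05. Id2, called lower at 3 and 12 h of every lineage, was at 35.4 to 36.9 CPM there, against 37.0 to 43.0 CPM at 0 h. Its call at 3 h of adipogenesis (-1.03) was lost at -0.98 without replicate 2 of 0 h. At 72 h of adipogenesis, where Mgp was also high, Id3 and Id2 were called lower (-1.36 and -1.34).

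Of 8 integrin subunits that bind RGD, 5 were listed and only Itgb1 was tested. Itgb1, called lower at 72 h of adipogenesis (-1.03), was under the threshold with every other scaling and with edgeR, at -0.65 to -0.93. Of the glucocorticoid response list, 2 of 7 genes were listed and tested. Tsc22d3 was called higher in all 9 comparisons with 0 h, by 4.63 at 72 h of osteogenesis (adjusted p = 2.8e-20). The other gene was called in none of them, with log2 fold changes of -0.40 to 0.52, so the list did not move as a set.

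Genes whose pattern was most like those of Mgp and Ibsp were named by Pearson correlation of log2(CPM + 1) over the 30 samples, against 2075 tested genes with a mean of at least 5 CPM. The samples of a group share treatment, so r is a description of 30 points in 10 groups, given without p. Mgp and Ibsp correlated with each other at 0.29. Most like Mgp were Ctsb (r = 0.97), Dpp7 (0.96), Pink1 (0.94), Ctsf (0.93), Lamp2 (0.92), Smpdl3a (0.91), Timp2 (0.90) and Zfp36 (0.89). Over the 10 group means these r were 0.98, 0.99, 0.95, 0.97, 0.93, 0.97, 0.95 and 0.92. Ctsb, cathepsin B, had a mean of 4904 CPM at 0 h, 2528 CPM at 12 h of osteogenesis and 8314 CPM at 72 h of adipogenesis. Most opposite to Mgp were Nomo1 (r = -0.97), AABR07012795.1 (-0.97), Phb (-0.96) and Cct7 (-0.96), with -0.98, -0.98, -0.98 and -0.96 over group means. With median-ratio scaling 7 of the 8 most alike and 3 of the 4 most opposite were the same.

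Most like Ibsp were LOC102547056 (r = 0.93), Tgfbi (0.93), Dclk3 (0.92), Htr2b (0.90), Adamts17 (0.90), Prss35 (0.90), Lama1 (0.90) and Postn (0.89), and over the 10 group means these were 0.95, 0.95, 0.93, 0.92, 0.92, 0.92, 0.92 and 0.91. These values follow 1 group, 72 h of chondrogenesis. LOC102547056, Dclk3, Htr2b, Adamts17, Prss35 and Postn reached the mean of 5 CPM only through that group, in which Ibsp was highest. Their high r was thus largely set by the choice of genes compared and is not read as a result. Tgfbi, which encodes a matrix protein induced by TGF-beta, had a mean of 14.8 CPM at 0 h, 60.2 CPM at 3 h, 166 CPM at 12 h and 1553 CPM at 72 h of chondrogenesis. Lama1, a laminin chain, was at 4.59 CPM at 0 h and 217 CPM there. Most opposite were Etfa (r = -0.83), Maoa (-0.83), Aldh3a2 (-0.82) and Ifi27 (-0.81), with -0.87, -0.86, -0.84 and -0.86 over group means. With median-ratio scaling 6 of the 8 most alike were the same, but 0 of the 4 most opposite.

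Of Mgp and Ibsp, 1 matched the promoter table by symbol. The promoter of Ibsp is shown as the sequence at the start of a transcript that differed between lineages. The sequence covers 250 bases before to 50 after the gene's start in RefSeq (GRCr8, chr14:5757193-5757492, minus strand), written 5′ to 3′ with motif matches in capitals. The motifs searched on both strands were TATAAA (bound by the TBP protein), CCAAT (bound by NF-Y), TGTGGT (a RUNX motif), TGACG (part of the cAMP response element), TAATTA (a homeodomain motif) and AGAACA (a core of the glucocorticoid receptor site).
Ibsp: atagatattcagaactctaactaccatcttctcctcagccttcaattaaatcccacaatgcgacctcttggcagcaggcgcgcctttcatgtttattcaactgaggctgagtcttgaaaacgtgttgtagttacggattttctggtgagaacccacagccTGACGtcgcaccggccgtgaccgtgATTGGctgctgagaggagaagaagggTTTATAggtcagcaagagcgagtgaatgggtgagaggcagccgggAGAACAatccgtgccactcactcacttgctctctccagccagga
Counted from 1 at its 5′ end, TGACG stands at bases 161 to 165, CCAAT on the reverse strand at 186 to 190, TATAAA on the reverse strand at 212 to 217 and AGAACA at 257 to 262. Of 33469 promoters of this length in the table, 21.2% hold TGACG, 37.5% CCAAT, 14.2% TATAAA and 20.7% AGAACA. No match was found for TGTGGT or for TAATTA, which 17.3% and 5.36% of promoters hold. A match is a description and not evidence that a factor binds there.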

How the data were processed

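RNA of 30 samples was sequenced on an Illumina NovaSeq. The paper describes mRNA libraries, whereas the labels name Ribo-Zero depletion. The submitters' processing notes name Trimmomatic, HISAT2 and StringTie, with versions and genome build not given in the sources used here. The authors deposited values named FPKM, but these are CPM as deposited: in every sample 100% were whole multiples of 1 step within 0.1 read, which gave whole read counts, so the test planned for FPKM was run on CPM. Of 10803 rows, those sharing 1 of 729 repeated names were summed.

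The 24 comparisons used R 4.3.3 and limma 3.58.1, with lmFit, then contrasts.fit, then a trended eBayes, on log2(CPM + 1) and no covariates. Scripts were tested on simulated data. Alternatives used no filter, a pseudocount of 0.1, 3 other scalings, fits on 6 samples, a replicate block, each replicate left out, rows kept apart and edgeR 4.0.16 on the recovered reads, which called 452 genes higher and 550 lower at 3 h of OS, 466 and 729 at 12 h of OS and 550 and 392 at 72 h of CH against 0 h. Mgp and Ibsp, every member of the gene lists called in at least 1 comparison, and the 8 most and 4 least alike genes were named. Further genes are named only in checks of cell type and depth, apart from Spp1 and Dmp1, SIBLING genes that were listed but not tested. The members and lists were chosen with earlier results of these data known. Tables and figures came from Python 3.11.15 with scipy 1.17.1, pandas 2.3.3, matplotlib 3.10.9 and numpy 2.4.6.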

Additional observations from a re-analysis of the deposited data

Results flagged for a closer look

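For both genes, changes from the same 0 h samples differed between lineages by the test of the difference itself (limma, adjusted over all tested genes). At 12 h Mgp differed between osteogenesis and adipogenesis by -1.37 on the log2 scale (adjusted p = 1.9e-05). At 12 h Ibsp differed by -1.08 between osteogenesis and adipogenesis (adjusted p = 0.0035), a call lost at -0.87 without replicate 3 of adipogenesis, at -0.97 without replicate 3 of osteogenesis and at -0.92 under quantile normalization. It also differed by -2.50 between osteogenesis and chondrogenesis (adjusted p = 2.2e-08) and by 1.42 between chondrogenesis and adipogenesis (adjusted p = 0.00020). At 72 h Ibsp differed by -6.05 between osteogenesis and chondrogenesis (adjusted p = 5.8e-17) and by 6.70 between chondrogenesis and adipogenesis (adjusted p = 2.9e-18).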

How the results depend on the processing

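Of 432 fold changes of Mgp and Ibsp under settings other than leaving out a sample, 411 kept their direction and their side of the thresholds, and of 288 with a sample left out, 275 did. The 432 include the settings with no filter, fits on 6 samples, a replicate block and rows kept apart. In these the fold change of Mgp and Ibsp is the same by construction, so only the adjusted p could move a call, and the 411 overstate how stable the values are. The cause of the following changes was not tested. Quantile normalization gave 1.16 for Mgp at 72 h of CH, still called, -1.04 for Mgp in CH against AD at 12 h, -0.0759 for Mgp in CH against AD at 72 h, -0.0307 for Ibsp at 72 h of OS against 0 h and -0.92 for Ibsp in OS against AD at 12 h. Median-ratio scaling gave -0.0517 for Ibsp at 72 h of OS, 0.92 at 3 h of CH and -0.84 from 12 to 72 h of AD. The same sum over the listed genes gave -1.07 for Mgp in CH against AD at 12 h, and -0.00802 for Ibsp at 72 h of OS and -0.94 from 12 to 72 h of AD. A pseudocount of 0.1 gave, for Ibsp, 1.12 at 3 h of AD, -1.17 from 3 to 12 h of OS, -1.11 in OS against CH at 3 h and 1.03 in OS against AD at 72 h. In the limma fit on 6 samples, where the difference of means is the same by construction, the call of Ibsp from 12 to 72 h of AD (-1.11) was lost, with an adjusted p of 0.085 in place of 0.0020 (0.00093 to 0.085 over all alternatives). edgeR gave -1.06 for Mgp in CH against AD at 12 h, and for Ibsp -1.25 and -0.0225 at 12 and 72 h of OS against 0 h, -1.36 from 3 to 12 h and 1.23 from 12 to 72 h of OS, and -1.02 in OS against CH at 3 h.

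With each sample left out in turn, Mgp ranged from 0.92 to 1.01 at 72 h of OS, 0.97 to 1.47 at 72 h of AD, 0.55 to 1.23 from 3 to 12 h of AD and -1.36 to -0.68 in CH against AD at 12 h. Ibsp ranged from -0.17 to 0.29 at 72 h of OS, 0.82 to 1.03 at 3 h of AD, -1.31 to -0.77 from 12 to 72 h of AD, -1.04 to -0.76 in OS against CH at 3 h and -1.21 to -0.87 in OS against AD at 12 h. Without replicate 3 of 0 h or replicate 2 of 72 h, Ibsp at 72 h of OS was -0.03 or -0.17. The other counts and list genes did not reverse, and the number of genes called in either direction in a comparison stayed within 1.5 times. The numbers higher and lower taken apart moved by more, as at 12 h of OS, from 640 higher and 312 lower to 466 and 729 with edgeR.

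Replicate numbers did not pair the samples in these values: over 135 pairs with the same number, the median correlation of deviations was -0.01, and 3 exceeded 0.1. Over 270 pairs with different numbers it was 0.005, and 14 exceeded 0.1. These correlations cannot tell whether samples of the same number shared an animal or a batch. A replicate block cannot move a difference of group means in this balanced design, such as the 0.97 of Mgp at 72 h of OS. It moved the adjusted p of that limma value from 0.0015 to 0.0023 (7.5e-05 to 0.015 over all alternatives), and no call of Mgp or Ibsp changed. Ibsp outside CH rests on 3 to 42 reads per sample, which limits fold changes there.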
